A study of Dreissena polymorpha with 10 samples.

Results

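Transcript levels in zebra mussels (Dreissena polymorpha, a freshwater bivalve) sampled in June, labelled as spawning, were set against those in February, labelled as pre-spawning. The comparison uses 6 of the 10 arrays of a seasonal study of a natural population at Riba-Roja on the Ebro River in Spain, chosen by the month and sex in the sample titles. June had 4 arrays, 2 of females and 2 of males, and February had 2 arrays, 1 titled female and 1 titled male. The other 4 arrays are of mussels in September, labelled as gonad resorption, and enter here through the scaling, the choice of probes to test and the estimate of spread, and as values given beside the comparison. Every array carried RNA from a portion of the mussel body, labelled with the dye Cy3, and the labels name no treatment. The sources used here do not give the number of animals behind an array or their age. Such a sample mixes many tissues, so a change in the make-up of the body and a change of RNA per cell cannot be told apart.

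Zebra mussels have separate sexes and shed eggs and sperm into the water, where fertilisation takes place. In temperate waters the gonads fill with gametes over the cold months, spawning follows as the water warms, and spent gonads are then resorbed. Ripening oocytes store yolk and maternal RNA, and ripening testes hold large numbers of sperm with flagella, so a sample of the whole soft body can carry a large share of germ cell RNA in season.

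The probes are identified by accessions of transcript sequences. Apart from 6 probes named RXR, the files pair no accession with a gene, and 0 accessions were found among the RefSeq genes of UMN_Dpol_1.0, an assembly of the species. Changes are therefore described by accession, without gene function or genome position, and no probe sequence is shown. Levels are relative log2 signals: the log2 of the background-corrected signal minus a 75th percentile of that array. That percentile is taken over the 2740 probes well above background on all 10 arrays, so that 0 is the percentile itself and most values are negative. A level serves to compare arrays for 1 probe and not 1 probe with another. Of 13654 probes, 5139 (of 2198 accessions) were well above background on at least 2 of the 10 arrays and were tested, and 3371 of these were well above background on all 6 June and February arrays.

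The 6 arrays were close in brightness and lay on 1 slide with 1 scan date. Mean signal was 9517 to 10999 on the June arrays and 9344 to 9774 on the February arrays, and 28.9% to 33.6% of probes on June arrays and 30.2% to 30.6% on February arrays were well above background. No spot was saturated. The median SD of log2 signal among the 25 spots of repeated probes was 0.118 to 0.212 on the June arrays, 0.155 on February female replicate 1 and 0.348 on February male replicate 1. On the slide, the February arrays filled 1 row and the June females and June males a row each, so row and month cannot be told apart. Both columns of the slide held 1 February array, 1 June female array and 1 June male array.

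The titles and descriptions of the February arrays name opposite sexes, and the titles are used here. Among tested probes, 82 (of 45 accessions) were higher by more than 2 log2 units in June females than in June males with no overlap between the arrays. Of these, 71 were also higher on the February array titled female than on that titled male, as were 55.8% of all tested probes. The median February difference over all 82 was 2.54, against 2.65 in June and against a February median of 0.08 over all tested probes. Of the 53 probes (37 accessions) that were higher in June males by the same rule, 25 had the same sign between the February arrays, with a median of 0.08 for female minus male, against -2.46 in June. Over the 3371 probes above background on all 6 arrays, the female minus male differences of June and of February correlated at 0.46. The probes are not independent and share their arrays, and no p is given. The comparison of months weights the sexes equally and is the same whichever February array is female.

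June and February arrays were further apart than arrays of 1 month by the share of probes with a large difference, and less clearly so by the median difference. The median absolute log2 difference over the 3371 probes was 0.335 to 0.428 in the 8 pairs of a June and a February array. It was 0.259 to 0.367 in the 4 pairs of a June female and a June male array, 0.243 and 0.291 between the replicates of each sex in June, and 0.357 between both February arrays. A difference of more than 1 log2 unit was found for 15.5% to 19.8% of probes between the months, for 9.82% to 13.9% between the sexes in June, for 9.26% and 9.40% between June replicates and for 13.3% between the February arrays. By this second measure every pair of the months lay above every pair within a month, while by the median difference the pairs of the months overlapped those of the sexes.

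**Figure D1:**
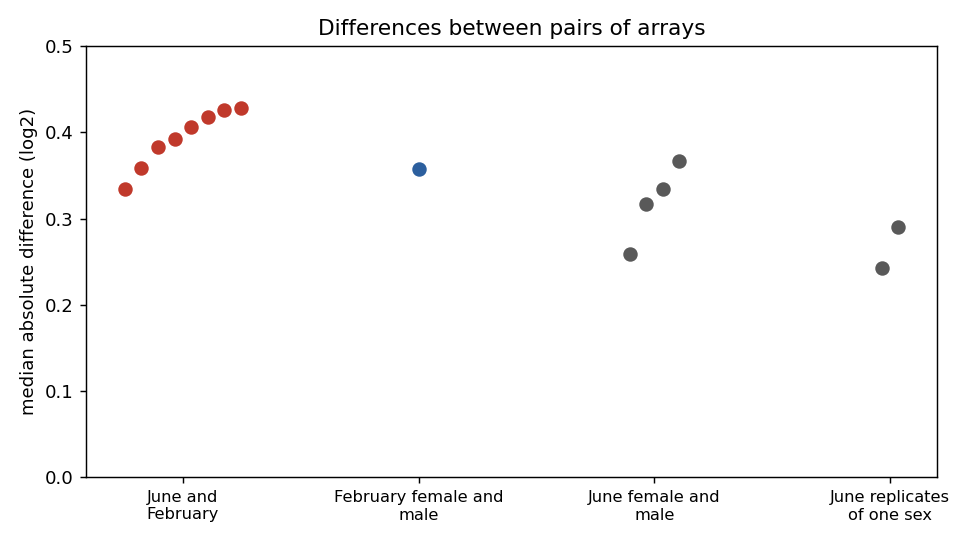
Median absolute log2 difference (vertical axis, from 0) between 2 arrays over the 3371 probes well above background on all 6, with 1 point per pair of arrays, grouped by kind of pair. The 8 pairs of a June and a February array lie between 0.335 and 0.428, and the 2 pairs of June replicates, at 0.243 and 0.291, lie below them.

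Against this background a small set of probes passed the test for a difference, and nearly all of that set were higher in June. By size alone, called or not, 138 tested probes differed by more than 2 log2 units upward and 39 by more than 2 downward. In a limma fit with 1 mean for each month and sex, 54 of 5139 probes (1.05%) were called at a Benjamini-Hochberg adjusted p under 0.05. Of these, 51 (0.992%), of 27 accessions, were higher in June and 3 (0.0584%), of 3 accessions, were lower in June. At an unadjusted p under 0.05 the fit gave 522 probes, 390 higher and 132 lower. The mean over the tested probes of each accession gave 21 called accessions of 2198 (0.955%), 19 higher (0.864%) and 2 lower (0.091%), while the arrays of the months did not overlap for 347 accessions higher in June (15.8%) and 131 lower in June (5.96%). February had 1 array per sex and gives no residual, so the SEs and p-values rest on the spread within June and September and leave out that of February. June and February arrays shared slide 1, while each September pair of replicates was split over 2 slides and 2 scan dates. With slide as a block, 9 probes and 0 accessions were called (244 accessions at an unadjusted p under 0.05). With single arrays left out, the count of 54 probes became 12 (February male replicate 1), 4 (June female replicate 2), 18 (either September male array) or 1 (any other June array, or the February female array).

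The balance of directions among all probes depended on how the arrays were scaled, while most calls were higher in June under each scaling that gave calls. The lowest June array lay above both February arrays for 830 probes (16.2%), and the highest June array lay below both for 389 (7.57%). With the 75th percentile taken over all probes, these numbers were 315 and 768. The median log2 difference of all tested probes, June minus February, was 0.10, against -0.22 with that scaling and -0.05 with quantile normalization. The called probes were 94.4% higher in June, against 87.5% of 8 calls with the percentile over all probes, 78.9% of 19 calls with quantile normalization and 81.8% of 22 calls with the authors' own values. All 54 called probes differed by at least 1.72 log2 units, more than these scalings shift the median, so their direction could not turn by such a shift.

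**Figure D2:**
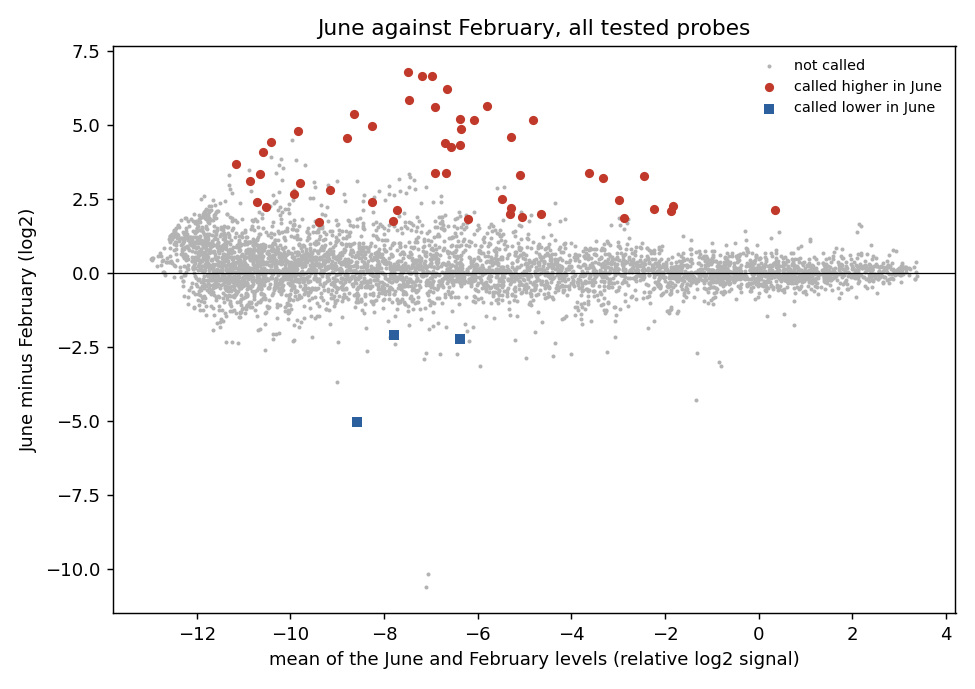
Log2 difference, June minus February (vertical axis), against the mean of the June and February levels (relative log2 signal, horizontal axis) for the 5139 tested probes. The 51 probes called higher in June (red circles) lie between 1.72 and 6.79, and the 3 called lower (blue squares) between -5.02 and -2.11. The lowest points, of 2 probes, were not called.

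The 51 probes called higher in June differed from February by a median of 3.33 log2 units, from 1.72 to 6.79. These fitted values take signals at background as measured. Of the 30 probes well above background on all 6 arrays, 25 had a difference above 2 and 9 one above 4, and the probe at 6.79 was well above background on 1 of 2 February arrays. The median levels of all 51 probes on the June arrays were -4.26 and -4.77 in females and -3.98 and -4.18 in males. They were -9.51 on the February female array and -7.96 on the February male array, again with signals at background taken as measured. By these medians all 4 June arrays stood above both February arrays, and the arrays of the months overlapped for none of the 51 probes. Of all tested probes, 16.2% had every June array above both February arrays. The 51 were called on the difference between these same arrays, so this order is favoured by their choice. The February arrays stood further apart from each other for these probes than for probes in general, with a median absolute gap of 1.23 against 0.46 over all tested probes. The gap was over 1 for 28 of the 51 and over 2 for 10, and reached 4.16. Between June replicates of a sex the median gap was 0.28, against 0.38 over all tested probes. Calls favour probes with a small spread in June and September, while the February gap has no part in the SE, so these gaps are a description.

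Some of the 51 probes were near background in February. Of the 51 probes, 30 exceeded background clearly on 2 February arrays, 10 on 1 and 11 on 0, while 49 were well above background on all 4 June arrays and 2 on 3. The 30 probes measured on all 6 arrays, of 16 accessions, had a median difference of 2.86 (1.74 to 5.61). For the 11 probes not well above background on either February array the fold is a lower bound, set against the lowest signal well above background on each array. They were at least 2.55-fold to at least 16.8-fold higher in June, with a median bound of 4.81-fold. With those bounds in place of the fitted values, the median log2 difference of the 51 probes was 2.78.

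In the accessions with a probe called higher, which were chosen on these same arrays, most of the other tested probes were higher in June too. The 27 accessions with a probe called higher had 86 tested probes, and 35 of these were not called. Of the 35, 33 were also higher in June, with a median log2 difference of 1.59 and a range from -0.76 to 2.92, while 57.4% of all tested probes were higher in June. Among the 24 accessions with 2 or more tested probes, 8 had every probe called and 16 had some that were not. Of the 21 accessions called on their mean, 17 had 2 or more tested probes. In 20 of the 21 all tested probes had 1 sign, which holds by itself for an accession with 1 tested probe and is favoured in the others by the call on their mean. The share over all tested accessions is not given, so the count of 20 is a description. Since they share RNA and arrays, the probes of an accession are not replicates of a month.

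EY434025, an accession with 4 tested probes, showed the largest rise that the naming rule allowed. Its relative log2 signal, averaged over the 4 probes, was -3.32 and -4.06 in June females and -2.67 and -3.37 in June males, against -9.05 on the February female array and -7.85 on the February male array. The lowest June array lay 3.78 log2 units above the higher February array, and all 4 probes were well above background on all 6 arrays. It averaged -3.36 ± 0.57 (SD, n = 4) in June and -8.45 ± 0.85 (SD, n = 2) in February, a difference of 5.09 (SE 0.609, 95% interval 3.58 to 6.61, 34.1-fold, limma adjusted p = 0.0311). The 4 probes differed by 4.85 (SE 0.657), 5.15 (SE 0.585), 5.20 (SE 0.607) and 5.16 (SE 0.591), and all were called. The difference was 5.36 in females (adjusted p = 0.152) and 4.83 in males (adjusted p = 0.219), and these differed by 0.53 (SE 1.22, adjusted p = 0.999). In September the accession averaged -6.99 ± 0.94 (SD, n = 4). Without any 1 of the 6 June and February arrays its rise was 4.83 to 5.36 and was not called (adjusted p = 0.134 to 0.219), nor was it without either September male array (5.09, adjusted p = 0.0897). The adjusted p ranged from 0.0124 to 0.793 over all 23 alternatives.

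EY434681, with 2 tested probes, had the same order of arrays and less spread in June. It had -4.39 and -5.02 in June females and -4.05 and -4.42 in June males, against -9.66 on the February female array and -7.93 on the February male array. Every June array was above both February arrays, by 2.91 log2 units or more. The mean was -4.47 ± 0.40 (SD, n = 4) in June and -8.80 ± 1.23 (SD, n = 2) in February, a difference of 4.32 (SE 0.298, 95% interval 3.58 to 5.06, 20.0-fold, limma adjusted p = 0.0081). Its probes gave 4.39 and 4.26, and both were called. The difference was 4.96 in females (adjusted p = 0.0256) and 3.69 in males (adjusted p = 0.125), each against 1 February array whose sex the labels give in 2 ways, and these differed by 1.27 (SE 0.595, adjusted p = 0.999). In September it averaged -9.22 ± 0.23 (SD, n = 4), with all 4 September arrays below every June array. On September female replicate 2 neither of its probes was well above background, and the other 3 September arrays averaged -9.13 ± 0.17 (SD, n = 3). The rise was not called without February female replicate 1 (3.69, adjusted p = 0.125), June male replicate 1 (4.23, adjusted p = 0.0727) or June male replicate 2 (4.42, adjusted p = 0.0598), and the adjusted p ranged from 0.0012 to 0.793 over all 23 alternatives.

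Only 3 probes, of 3 accessions, were called lower in June. EY435953, read by 1 tested probe that was well above background on all 6 arrays, had -7.33 and -6.88 in June females and -8.03 and -7.81 in June males, against -5.14 on the February female array and -5.38 on the February male array. All June arrays lay below both February arrays, by at least 1.49 log2 units. It averaged -7.51 ± 0.51 (SD, n = 4) in June and -5.26 ± 0.17 (SD, n = 2) in February, a difference of -2.25 (SE 0.298, 95% interval -2.99 to -1.51, 4.75-fold lower, limma adjusted p = 0.0434 over accessions). The September mean was -6.70 ± 0.27 (SD, n = 4), between those of the other months.

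EY436769 fell by its mean over 2 probes that did not do the same. On probe 1 no June array was well above background, with -10.77, -10.83, -11.98 and -10.78, against -5.74 on the February female array and -6.39 on the February male array. For that probe the level in June was at least 20.4-fold lower than in February (adjusted p = 0.0259). On probe 2 the difference was -0.20 (SE 0.404, adjusted p = 0.979), with 3 of 4 June and 2 of 2 February arrays well above background. The mean of both was -2.61 (SE 0.300, 95% interval -3.36 to -1.86, limma adjusted p = 0.0311), and the change therefore rests on probe 1. The calls of both lower accessions were lost without any 1 of the 10 arrays, September arrays included. Without 1 array, the difference was -2.53 to -1.96 for EY435953 (adjusted p = 0.0861 to 0.295) and -2.75 to -2.48 for EY436769 (adjusted p = 0.061 to 0.187).

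The third lower probe, of an accession outside the naming rule, had -9.13 and -8.65 in June females and -8.85 and -8.69 in June males, against -7.14 on the February female array and -6.31 on the February male array. The arrays did not overlap, and the difference was -2.11 (SE 0.275, limma adjusted p = 0.04). The 4 other probes of its accession had differences of -1.88 to -1.25, none of them called. In September the probe averaged -9.14.

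**Figure D3:**
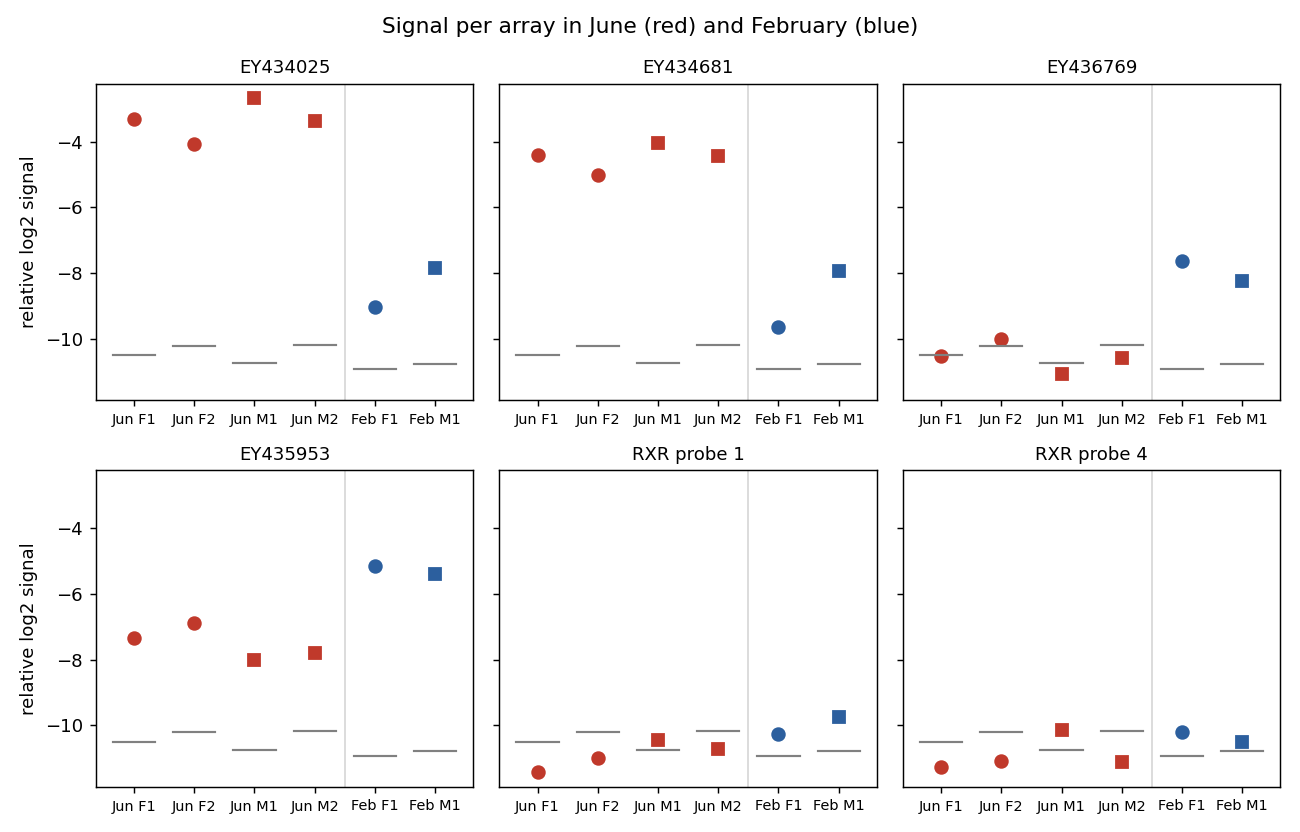
Relative log2 signal (vertical axis) of the 4 named accessions and the 2 tested RXR probes on each June array (red) and each February array (blue), with females as circles and males as squares. Grey dashes mark the lowest signal well above background on that array. June lies above February for EY434025 and EY434681 and below it for EY436769 and EY435953, and the RXR signals lie near the dashes.

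The retinoid X receptor, RXR, is a nuclear receptor that pairs with other nuclear receptors on DNA, and in marine snails it is known as a target of organotin compounds that cause male organs to grow in females. It is read by 6 probes, of which 2 were bright enough to test. Probe 1 had -11.44, -11.01, -10.45 and -10.71 on the June arrays, against -10.25 and -9.73 on the February arrays. Probe 4 had -11.29, -11.08, -10.14 and -11.13 in June, against -10.21 and -10.50 in February. For probe 1 all June arrays lay below both February arrays, and for probe 4 June male replicate 1 lay above them. Each probe was well above background on 1 of 4 June arrays and on 2 of 2 February arrays. The difference was -0.91 for probe 1 (SE 0.46, 95% interval -2.05 to 0.24, limma adjusted p = 0.628) and -0.55 for probe 4 (SE 0.344, 95% interval -1.41 to 0.30, adjusted p = 0.731). Neither passed the test, and the intervals take in 0 as well as falls of more than 1 log2 unit. The other 4 RXR probes were not well above background on either February array, and 1 of them was so on 1 June array.

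For the 51 probes, June minus February had medians of 3.45 in females and 3.16 in males, and the lowest value in either sex was 0.39. Since none of the 51 overlapped between the months, a difference above 0 in each sex was fixed by their choice. With sexes as titled, the difference was the larger one in females for 35 of the 51. The share over all tested probes is not given, so the count of 35 is a description. In June the median of female minus male over the 51 was -0.46. In February the median level of the 51 was -9.51 on the array titled female and -7.96 on the array titled male. The count therefore depends on the February titles, and its value with the February sexes exchanged is not given. Tested within a sex, against the single February array of that title, 12 probes (0.234%) were called in females, all higher in June and all among the 51, and 1 probe (0.0195%) was called higher in males. At an unadjusted p under 0.05 there were 357 probes in females and 342 in males. No probe (0 of 5139, 0%) differed between the sexes in its change by limma at an adjusted p under 0.05. The unadjusted p was under 0.05 for 135 probes (2.63% of all tested), 13 of them among the 51. Calls favour probes with a small SE, which leaves out the February gap, so the count of 13 is a description. For those 51 the female change minus the male change ran from -2.68 to 3.41. A test of 1 February array per sex has a median SE of 0.594 within a sex and of 0.840 for the difference between the sexes. With the February sexes exchanged, as their descriptions have them, 0 probes were called in females (445 at an unadjusted p under 0.05) and 14 in males.

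**Figure D4:**
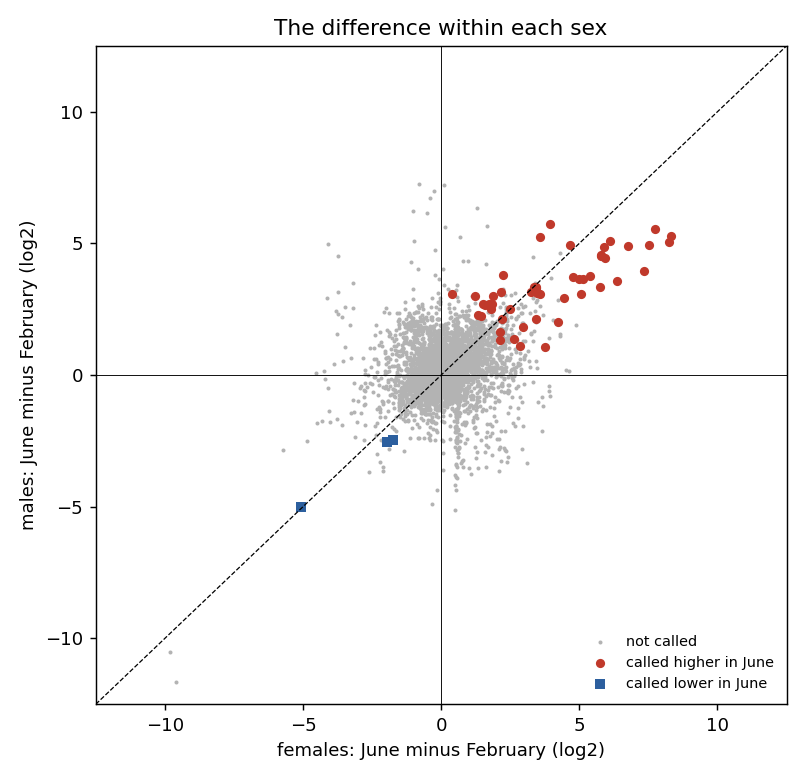
Log2 difference, June minus February, in males (vertical axis) against that in females (horizontal axis) for the 5139 tested probes, with sexes as titled and the dashed line marking equal change. The 51 probes called higher in June (red) all lie above 0 in both sexes, 35 of them on the female side of the line. The 3 called lower (blue) lie below 0 in both.

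Within the slide columns, for the 51 probes the median difference was 3.86 in column 1, which holds the February female array, and 2.87 in column 2, which holds the February male array. A difference above 0 in each column was again fixed by the choice of the probes. Over all tested probes the medians were -0.03 in column 1 and 0.26 in column 2. For EY434025 the difference was 6.05 in column 1 and 4.13 in column 2, and for EY434681 it was 5.44 and 3.21 in the same order.

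In September 45 of the 51 probes called higher in June were below their June mean, and for 41 every September array was below every June array. Over all tested probes 44.6% had a September mean below that of June. The share of all tested probes that meets the second rule is not given, so the count of 41 is a description. The comparisons with February and with September use the same June arrays, for which the 51 were chosen as high, so no test is given. The median level of the 51 probes was -8.77 in February, -4.22 in June and -8.63 in September. The September arrays had medians of -9.03 and -8.29 in females and -8.61 and -8.18 in males. For all tested probes the medians were -7.13, -6.84 and -6.94 in the same order of months. The 2 June accessions named above differed here: EY434681 averaged -9.22 in September, against -8.80 in February, while EY434025 averaged -6.99 in September, against -8.45 in February. September female replicate 2 had a mean signal of 766.3, against 8138 to 9674 on the other September arrays, and its lowest signal well above background was -8.32, so its median of -8.29 for the 51 probes is at background, with 24 of the 51 well above it. Leaving that array out, the counts were again 45 and 41, and the median of the 51 in September was -8.71. It lay on slide 3 and September male replicate 2 on slide 2, both with another scan date than the rest.

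**Figure D5:**
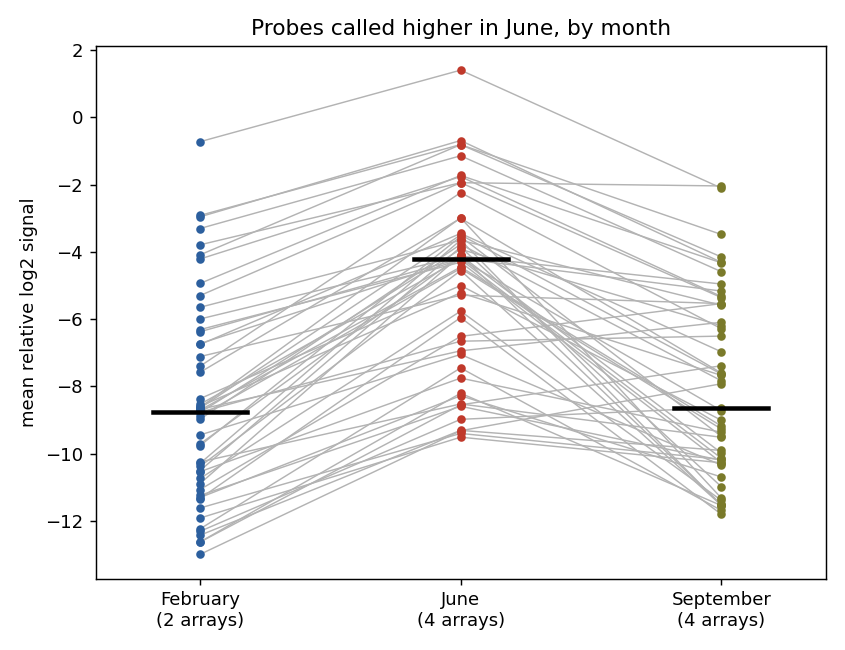
Mean relative log2 signal (vertical axis) of each of the 51 probes called higher in June, by month, with a line per probe and a black bar at the median of each month. The medians are -8.77 in February (2 arrays), -4.22 in June (4 arrays) and -8.63 in September (4 arrays). The rise to June follows from how the probes were chosen.

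A reading by presence above background, which is another rule than the test, gave few transcripts. Of all 13654 probes, 26 (of 20 accessions) were well above background on all 4 June arrays and on neither February array, and 9 of these were called. Their median June level was -8.78, where the lowest signals well above background were -10.75 to -10.19 on the June arrays. In the other direction, 14 probes (of 13 accessions) passed that flag on both February arrays and on no June array, and 1 of these was called. Both counts are small beside the 3371 probes present on all 6 arrays and the 7764 present on none, and they are not alike in strictness, since June has more arrays. Of all tested probes, 0.992% were called higher and 0.0584% lower. The flag and the test read the same arrays, so the choice of these 26 and 14 probes favours calls among them.

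Of all tested probes 1.05% were called, most of them at middle brightness, while the SE fell with brightness. Split by the mean of their June and February levels into 3 sets of 1713 tested probes, the dimmest set held 11 called higher and 0 called lower, the middle set 31 and 3, and the brightest set 9 and 0. The median SE was 0.784, 0.427 and 0.293 in the same order. Over all tested probes the 95% interval of the difference reached 1.04 log2 units to either side of the estimate in the median, 0.84 for probes above background on all 6 arrays and 2.10 for the rest. The interval lay within 1 log2 unit of 0 for 1187 probes (23.1%), and for 1127 (33.4%) of the 3371 probes present on all 6 arrays, so for those a larger mean change between these arrays lies outside the interval. Called or not, 138 probes had a difference above 2 and 39 one below -2, of which 48 and 10 were above background on all 6 arrays.

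Of the 22 probes printed 25 times on each array 14 were tested, and 12 were well above background on all 6 arrays. None was called by limma (0 of 14, with 2 at an unadjusted p under 0.05), against 1.05% of all tested probes. Their differences were -1.29 to 1.88, with a median of 0.39. The difference was above 0 for 12 of the 14, against 57.4% of all tested probes. The arrays of the months did not overlap for 5, 3 of them higher and 2 lower in June. Over all tested probes these shares were 16.2% higher and 7.57% lower. By series of accessions, of the 3803 tested probes with accessions starting with EY, 45 were called higher and 2 lower (1.24%), of the 828 starting with AM 4 and 1 (0.604%), of the 370 starting with AJ none, and of the 138 others 2 and 0 (1.45%).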

How the data were processed

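Per the file headers, the authors' software for turning scans of 1-colour arrays into intensity values was Feature Extraction 10.5.1.1 (Agilent). The deposited processed signal is corrected for background within each array and is not scaled between arrays. The deposited table of log2 values, with 15113 rows, correlated with each array's own log2 processed signals at 0.988 or higher. Its scaling and centring between arrays are not given in the sources used here, and it served as an alternative. Background and outlier marks are flags of the scanner software, as deposited.

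The 536 control spots were left out, and log2 signals were averaged over the unflagged spots of a probe (15208 spots, 13654 probes, 3541 accessions or names). Each array was scaled to its 75th percentile over the 2740 probes well above background on all 10 arrays. A probe was well above background where most of its spots were, by the scanner's flag, and was tested where this held on at least 2 arrays. An accession was the mean of its tested probes.

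Differences were fitted with limma 3.58.1 (lmFit, contrasts.fit, eBayes, 2-sided) in R 4.3.3, with 6 means for month and sex over all 10 arrays, 4 residual and 1.65 prior degrees of freedom, and Benjamini-Hochberg adjustment over all tested probes or accessions. The contrast is the mean of the June sexes minus that of the February sexes. The series' design text calls the replicates biological. The number of arrays limits the precision. The fit was tested on simulated data. Figures used matplotlib 3.10.9 in Python 3.11.15.

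Accessions were named by a rule: the largest changes, at most 2 rises and 2 falls, among called accessions whose 2 or more tested probes all have the sign of the change, with no overlap between the months and at least 1 probe well above background on all 6 arrays, relaxed in the order given by background and by number of probes where too few qualified. Both falls came in by that relaxation. The comparison, the rule and the lists were chosen with earlier results of these data known. Marker lists of germ cells, muscle, gill and mantle could not be applied without gene names, so the tissue was not checked. The normexp alternative used the median spot signals that the files hold, not mean ones.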

Additional observations from a re-analysis of the deposited data

How the results depend on the processing

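No called probe or accession turned direction, which most alternatives could not bring about, since they leave the estimate as it is or shift it by less than its size. The number of calls moved widely. Against 54 probes, 21 accessions and 4 named accessions called, the 75th percentile over all probes gave 8, 2 and 0, quantile normalization 19, 13 and 2, and normexp background correction 0, 0 and 0 by limma (229 probes and 60 accessions at an unadjusted p under 0.05). Without the filter on dim probes, over 13654 probes, the numbers were 5, 0 and 0 (54 accessions at an unadjusted p under 0.05), and with slide as a block 9, 0 and 0 (244 accessions unadjusted). The 6 arrays alone, with additive month and sex, gave 25, 12 and 2, and the arrays of slide 1 with the same terms 84 probes and 37 accessions. The authors' values gave 22 probes. The filters on 2 of 6 or on all 6 arrays and an intensity trend gave 56, 43 and 51 probes.

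The replicate block gave 6 probes, 4 accessions and 1 named accession. February has replicate 1 only, and replicate differences of June females and of June males correlated at 0.14 over 3371 probes, so the numbers were not taken to pair the arrays. Slide column as a block, chosen after seeing the data, gave 12, 4 and 1. Leaving out each of the 10 arrays in turn gave 1 to 36 probes, 1 to 16 accessions and 0 to 2 named accessions. A group left with 1 array was assumed to vary like the others. Neither tested RXR probe was called in any of the 22 alternatives with a value for it (0 by limma, with at most 1 at an unadjusted p under 0.05), and the filter on all 6 arrays leaves both out.

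Within females, against 12 probes, the percentile over all probes gave 0 (184 at an unadjusted p under 0.05), quantile normalization 2, normexp 0 (116) and exchanged February sexes 0 (445). Within males, against 1, the first 3 gave 0 each (175, 298 and 167) and the exchange 14. The difference between the sexes stayed at 0 in each of these, with 54 to 362 probes at an unadjusted p under 0.05. Why the counts moved was not tested.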

Other observations

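AJ517619, an accession that was not called, is given here because its values were seen to differ widely between the months. On 2 of its 5 probes no June array was well above background. Probe 1 had -12.49 and -12.28 in June females and -12.64 and -12.22 in June males, against -2.78 on the February female array and -0.78 on the February male array. Probe 2 had -12.71, -12.40, -11.23 and -12.21 in June, against -2.73 and -1.20 in February. Both February arrays were thus bright and all June arrays at background, and the probes were at least 397-fold and at least 350-fold lower in June. Neither passed the test (limma adjusted p = 0.312 and 0.264), and their SEs were 3.08 and 2.60. The September arrays, which enter that SE, spread from -9.77 and -4.55 in females to -2.57 and -13.30 in males on probe 1.

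The 3 other probes of AJ517619 were well above background on all 6 arrays and differed less. Probe 3 had -5.17, -4.53, -4.72 and -3.85 in June, against -2.52 and -1.30 in February. The arrays of the months did not overlap for any of the 5 probes, against 7.57% of all tested probes with every June array below both February arrays. The accession was chosen for its difference and its probes share RNA and arrays, so this is a description. The differences of probes 3, 4 and 5 were -2.66, -1.35 and -1.34, with adjusted p-values of 0.264, 0.392 and 0.409. Probes of 1 accession therefore gave unequal differences, and the cause was not tested.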
